A study of Mus musculus with 6 samples.

Results

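The small leucine-rich proteoglycans (SLRPs) examined here were 10 genes: Dcn (decorin), Bgn (biglycan), Lum (lumican), Fmod (fibromodulin), Ogn (osteoglycin), Omd (osteomodulin), Prelp (prolargin), Aspn (asporin), Kera (keratocan) and Podn (podocan). They were chosen by name from general knowledge, with earlier results of these data known, but no measured value entered the rule. They are the rows of the deposited table that carry these gene symbols, and all 10 were found among its 34745 genes. Their RNA was sequenced in NOR-10, a fibroblast line from mouse skeletal muscle, in 2 groups of 3 libraries each. The control group received PBS and the D-gal group received D-gal (D-galactose, a sugar used to induce cellular senescence) at 20 mg/mL for 3 days, with the dose and duration taken from the study's methods. Both groups were the same cell line without any genetic change named in the labels, so that every value describes this single line. The labels do not say whether the libraries of a group came from separate cultures, and the p-values therefore measure only the spread between these libraries, which may be technical.

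SLRPs are secreted proteins with a core of leucine-rich repeats, and many of them carry chondroitin, dermatan or keratan sulfate chains. Many bind collagen fibrils and influence how thick the fibrils grow and how they are spaced, and several bind TGF-beta or cell surface receptors. The family is divided into classes by sequence: Dcn, Bgn and Aspn belong to class I, Fmod, Lum, Prelp, Kera and Omd to class II, Ogn to class III, and Podn to a class of its own with Podnl1, and the class I and class II genes largely sit in clusters on a few chromosomes.

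Total counts lay between 16876087 and 20830349 per control library and between 13759108 and 15157064 per D-gal library. Normalized counts, which are counts scaled by TMM to the mean library size, are given below, and 13407 genes had enough counts to be tested with edgeR's quasi-likelihood test and Benjamini-Hochberg adjustment. A gene passed the test at an adjusted p under 0.05, and the threshold on size, where it is used, was a rise or fall of 1 on the log2 scale. Over all genes tested the median log2 fold change was 0.0036. Of the 11 fibroblast markers, 10 had at least 10 counts in every library, and the exception was Lum, itself an SLRP. Control replicate 1 differed from the other libraries in its leukocyte markers, whose sum was 50.6 CPM (counts per 1e6 TMM-scaled counts) there, 9.87 to 12.7 CPM in the other control libraries and 8.78 to 9.29 CPM in the D-gal libraries.

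After D-gal, the SLRP genes did not move together. Aspn, Ogn and Omd, which are neighbours on chromosome 13, rose, whereas Dcn, Fmod, Prelp and, by a small amount, Bgn fell. Podn did not pass the test, and Lum and Kera were not detectable at this depth. Of the 10 genes, 8 had enough counts to be tested and 7 of these passed, where 34.8% of all genes tested passed. The 3 that rose stand against 16.9% of all genes tested, and the 4 that fell against 17.8%. With the threshold on size as well, 4 of the 8 remained (Aspn higher, and Dcn, Fmod and Prelp lower), where 4.21% of all genes tested did. The normalized counts of the groups did not overlap for 7 of the 8, where this held for 49.1% of all genes tested. In a two-sided exact permutation test each of these 7 reached p = 0.1, the smallest that 3 libraries against 3 can give. The median log2 fold change of the 8 was -0.07, with values on both sides of it. In bulk RNA, fewer cells expressing a gene and less RNA per cell cannot be told apart.

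**Figure D1:**
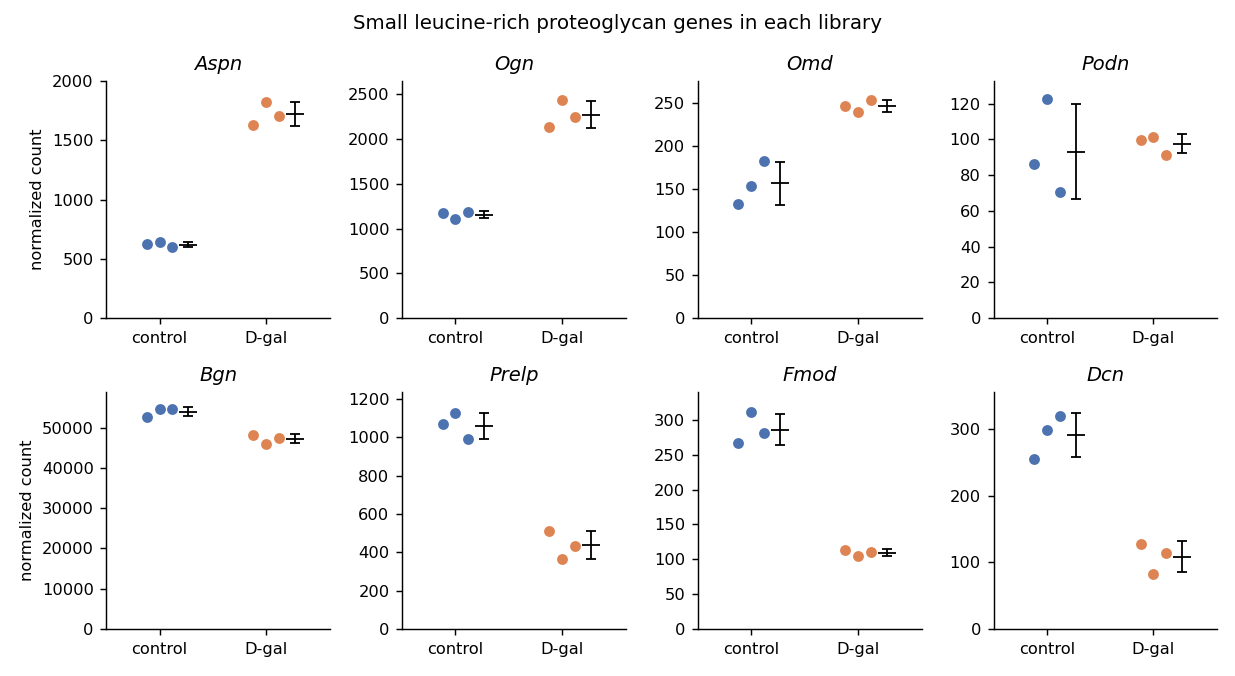
Normalized count (vertical axis, from 0) of the 8 tested SLRP genes in each of the 3 control and 3 D-gal libraries (points), with the group mean and SD beside them. The points of Aspn, Ogn and Omd lie higher in all D-gal libraries, those of Bgn, Prelp, Fmod and Dcn lie lower, and only for Podn do the groups overlap.

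The 3 genes that rose lie in a row on the plus strand of chromosome 13 (GRCm38). Aspn (ENSMUSG00000021388) spans chr13:49544443-49567557, Omd (ENSMUSG00000048368) spans chr13:49582766-49592609 and Ogn (ENSMUSG00000021390) spans chr13:49608071-49624500. Their promoters are shown because these genes rose side by side. Each line holds the 230 bases from 250 to 21 bases before the RefSeq start on GRCm38.p6, read 5′ to 3′ on the plus strand, at chr13:49544193-49544422 for Aspn, chr13:49582212-49582441 for Omd and chr13:49607765-49607994 for Ogn. Capitals mark matches to TATAAA, the TATA box, or to CAGAC, the SMAD box, on either strand, so that TTTATA and GTCTG are matches read on the other strand.
Aspn: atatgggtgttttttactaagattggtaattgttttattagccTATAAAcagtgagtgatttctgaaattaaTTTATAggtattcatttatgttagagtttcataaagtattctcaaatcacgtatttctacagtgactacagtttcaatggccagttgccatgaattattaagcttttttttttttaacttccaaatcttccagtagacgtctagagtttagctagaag
Omd: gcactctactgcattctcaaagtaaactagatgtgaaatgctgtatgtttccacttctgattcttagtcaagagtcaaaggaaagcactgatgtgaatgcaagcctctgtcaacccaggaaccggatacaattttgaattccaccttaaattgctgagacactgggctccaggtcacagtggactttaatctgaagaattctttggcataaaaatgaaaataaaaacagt
Ogn: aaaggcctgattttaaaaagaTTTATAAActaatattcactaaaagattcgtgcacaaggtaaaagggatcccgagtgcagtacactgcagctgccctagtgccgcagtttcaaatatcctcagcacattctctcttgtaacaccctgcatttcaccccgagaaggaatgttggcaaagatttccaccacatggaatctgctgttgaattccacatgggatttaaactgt
The Aspn window held 2 TATAAA matches, at -207 to -202 and, on the other strand, at -178 to -173. The Ogn window held a match on each strand, at -229 to -224 and -227 to -222, which overlap each other, and the Omd window held none. The RefSeq starts of Omd (49582462) and Ogn (49608015) lie before the starts of the spans given above. The bases just after the Ogn RefSeq start were not found in its annotated transcripts. TATAAA occurred in 11.8% of the 32851 RefSeq promoter windows of the same length. None of these 3 windows held CAGAC, which occurred in 39.7% of all windows. Their GC contents were 29.6% for Aspn, 39.1% for Omd and 41.7% for Ogn, where the median of all windows was 51.7%, and 1.49% of all windows had a lower GC content than that of Aspn.

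Asporin carries a run of aspartate residues in its amino-terminal part, has no glycosaminoglycan chain, and binds collagen and TGF-beta. In control its normalized counts were 624, 639.7 and 597, and in D-gal they were 1629.5, 1827 and 1707. Every D-gal library was far above every control library, and the spread within each group was small, with coefficients of variation of 3.50% in control and 5.78% in D-gal. Aspn rose 2.77-fold, with a log2 fold change of 1.47 (SE 0.06, edgeR adjusted p = 3.5e-06). Its p ranked 22 among the 13407 genes tested, and 140 of them had a larger rise. Of its exons, 7 bases overlap the gene Cenpp on the opposite strand.

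Osteoglycin, also called mimecan, can carry keratan sulfate and is found in bone, cornea and many other connective tissues. Ogn had normalized counts of 1176, 1106 and 1183 in control and of 2137, 2431 and 2244 in D-gal. All D-gal libraries lay far above the control libraries, with means of 2270.4 ± 149 in D-gal and 1155 ± 42.1 in control (SD, n = 3). The log2 fold change was 0.98 (SE 0.06, edgeR adjusted p = 1.5e-05), a rise that missed the threshold on size. Ogn has 391 genes above it in size of rise.

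Osteomodulin, or osteoadherin, is a keratan sulfate proteoglycan of mineralized tissue. Omd was measured at 133, 154 and 183 normalized counts in control and at 247, 240.2 and 254 in D-gal. All D-gal libraries lay above the highest control library, and the control libraries differed more among themselves than the D-gal libraries did. The rise was 1.58-fold, a log2 fold change of 0.66 (SE 0.12, edgeR adjusted p = 0.0047). Of the distinct words of 31 bases in its transcripts, 6.46% also occur, on either strand, in other annotated genes.

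The SLRP-related gene at the start of this 120 kb stretch did not pass the test. This gene, Ecm2, had 29.6, 21.2 and 34.3 normalized counts in control and 23.6, 29.5 and 38.6 in D-gal, which overlap. Its log2 fold change was 0.11 (SE 0.28, edgeR adjusted p = 0.80), with a 95% interval from -0.53 to 0.75. All 4 genes lie within the body of Cenpp, which encodes a centromere protein on the opposite strand and fell by 0.60 on the log2 scale (SE 0.12, edgeR adjusted p = 0.0070). Its counts were 271, 240 and 206 in control and 114, 125 and 132 in D-gal, in the direction opposite to that of Aspn, Omd and Ogn. Whether the counting used strand is not given in the sources used here. Reads from Cenpp and from the 4 genes inside it may therefore not be fully separated. In the annotation, exons of Aspn share 7 bases with exons of Cenpp, and those of Ecm2, Omd and Ogn share none. Of the 7 other genes tested within 250 kb of this stretch, Cenpp included, 4 rose, 1 fell and 2 did not pass. Over all genes tested, 16.9% rose and 17.8% fell. The flank was chosen after the values were seen, and a rise of the region as such was not tested. Of the 7, Fgd3, which encodes a guanine nucleotide exchange factor, rose most. Its log2 fold change was 1.85 (SE 0.05, edgeR adjusted p = 1.8e-06). Cenpp and Fgd3 were named after their values were seen.

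Prelp and Fmod, which fell, lie on chromosome 1 in a cluster of 151 kb that also holds Optc. Prelp (ENSMUSG00000041577) spans chr1:133910304-133921414 on the minus strand and Fmod (ENSMUSG00000041559) spans chr1:134037254-134048277 on the plus strand. Their windows are shown for comparison with those of the genes that rose, each read on its gene's strand, at chr1:133921422-133921651 for Prelp and chr1:134037004-134037233 for Fmod, with capitals as above.
Prelp: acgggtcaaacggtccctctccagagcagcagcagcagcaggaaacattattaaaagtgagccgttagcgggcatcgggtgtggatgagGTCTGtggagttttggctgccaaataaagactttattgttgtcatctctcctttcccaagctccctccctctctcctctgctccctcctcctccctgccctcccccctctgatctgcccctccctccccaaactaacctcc
Fmod: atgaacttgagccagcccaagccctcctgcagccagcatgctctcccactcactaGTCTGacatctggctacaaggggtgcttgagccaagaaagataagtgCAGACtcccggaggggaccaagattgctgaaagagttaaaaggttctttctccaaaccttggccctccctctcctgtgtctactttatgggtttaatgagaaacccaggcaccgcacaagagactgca
TATAAA was in neither window. Both held CAGAC, in the Prelp window at -161 to -157 on the other strand and in the Fmod window at -195 to -191 on the other strand and at -148 to -144. The window of Bgn, which also fell, held no CAGAC, and that of Optc, which did not pass the test, held 1. Dcn, which fell as well, had no RefSeq window and could not be searched. The GC contents were 55.7% for Prelp and 51.7% for Fmod, at or above the median of all windows. The other motifs searched on both strands were the CCAAT box (CCAAT, in 32.2% of all windows), the GC box (GGGCGG, 29.8%), the AP-1 site (TGANTCA, 6.34%), the E-box (CANNTG, 63.5%) and the NFAT core (TGGAAA, 17.4%). The AP-1 letters were in none of the windows of the 8 SLRP genes matched to RefSeq. An E-box was in the windows of Aspn, Ogn, Fmod, Bgn and Podn, and the NFAT core in those of Ogn and Omd. The CCAAT box was in the windows of Aspn and Kera, and the GC box in that of Bgn and in a window of Podn. A match is a description of the letters and not a site of binding.

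Prolargin anchors basement membranes to the connective tissue beneath them by binding both perlecan and collagen. Prelp had 1068, 1125 and 989.7 normalized counts in control and 513, 365 and 434 in D-gal. All D-gal libraries lay far below the lowest control library, and they differed more among themselves than the control libraries did. Prelp fell to 41.2% of its control level, a log2 fold change of -1.28 (SE 0.12, edgeR adjusted p = 0.00013). Of its exon bases, 350 (9.68%) overlap Gm15851 on the opposite strand, a gene with 3 counts in D-gal replicate 2 and 0 in the other libraries. Of the distinct words of 31 bases in the Prelp transcripts, 9.0% also occur, on either strand, in other annotated genes. Words from the overlap with Gm15851 can be among them.

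Fibromodulin binds type I collagen, carries keratan sulfate, and is abundant in tendon and cartilage. Fmod was measured at 267, 311 and 281 normalized counts in control and at 113, 105 and 111 in D-gal. The D-gal libraries were close to each other, with a mean of 109.7 ± 4.38 (SD, n = 3), and all lay far below the control libraries. The log2 fold change was -1.38 (SE 0.10, edgeR adjusted p = 5.1e-05), and 135 genes fell by more. Optc, which encodes opticin and lies beside Prelp, had 33.1, 34.3 and 23.2 normalized counts in control and 55.0, 49.1 and 25.3 in D-gal. These groups overlapped, and its log2 fold change of 0.51 (SE 0.31, edgeR adjusted p = 0.24) did not pass. Of the 6 other genes tested within 250 kb of this cluster, none passed as higher and 1 fell, Zbed6, which was named after its value was seen. Over all genes tested, 16.9% rose and 17.8% fell.

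Decorin carries a single chondroitin or dermatan sulfate chain, binds type I collagen and TGF-beta, and is among the proteoglycans most used to mark fibroblasts. Dcn (ENSMUSG00000019929) spans chr10:97479500-97518162 on the plus strand. Its normalized counts were 255.3, 299 and 319 in control and 128, 83.0 and 114 in D-gal. The highest D-gal library held 128, well under the lowest control library. Dcn fell to 37.3% of its control level, with a log2 fold change of -1.42 (SE 0.16, edgeR adjusted p = 0.00043). Its 95% interval, from -1.80 to -1.04, overlaps those of Fmod and Prelp, and the differences among these 3 falls were not tested. The other SLRP genes of this 203 kb cluster gave almost no reads. Lum (ENSMUSG00000036446, chr10:97565501-97572703, plus strand), a keratan sulfate proteoglycan of cornea and connective tissue and a usual fibroblast marker, had 1 count in control replicate 2 and 0 elsewhere. Kera (ENSMUSG00000019932, chr10:97607205-97613688, plus strand), best known from the cornea, had 0 counts in all 6 libraries. A floor of 3 counts corresponds to 0.146 to 0.181 CPM in control and to 0.195 to 0.215 CPM in D-gal, and it covers counting error only. Epyc, at the end of the cluster, had 2, 0 and 1 counts in control and 0 in D-gal.

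**Figure D2:**
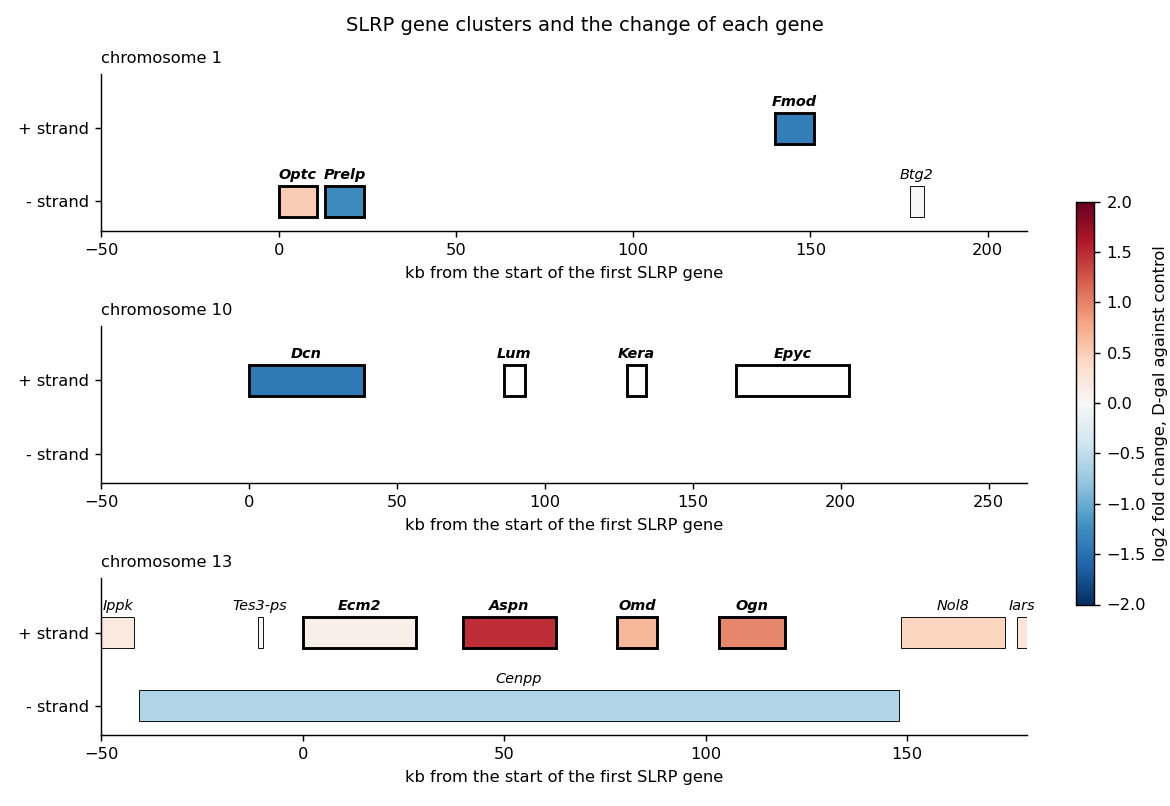
Position of the SLRP genes (thick outline) and their neighbours on chromosomes 1, 10 and 13, in kb from the start of the first SLRP gene of each cluster, by strand. The fill gives the log2 fold change under D-gal against control, white without a value where a gene was not tested, and shows Aspn (1.47), Omd (0.66) and Ogn (0.98) in red inside Cenpp in blue (-0.60), with Prelp (-1.28), Fmod (-1.38) and Dcn (-1.42) in blue.

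Biglycan carries a pair of chondroitin or dermatan sulfate chains and, when free of the matrix, is a ligand of Toll-like receptors. Bgn (ENSMUSG00000031375) spans chrX:73483602-73495933 on the plus strand and was by far the most abundant SLRP transcript. It had 52715, 54745 and 54584 normalized counts in control and 48172, 46059 and 47513 in D-gal. The groups did not overlap, but the gap was small: D-gal libraries held 87.5% of the control level. The log2 fold change was -0.19 (SE 0.03, edgeR adjusted p = 0.00096), and 3238 genes fell by more. Podocan binds collagen and is known for restraining smooth muscle cell growth. Podn (ENSMUSG00000028600) spans chr4:108014791-108096445 on the minus strand and had 86.3, 122 and 70.7 normalized counts in control and 99.9, 102 and 91.6 in D-gal. The D-gal values lay inside the range of the control values. Its log2 fold change of 0.06 (SE 0.20, edgeR adjusted p = 0.85) has a 95% interval from -0.41 to 0.53, which holds the change seen in Bgn and ends under that seen in Omd.

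**Figure D3:**
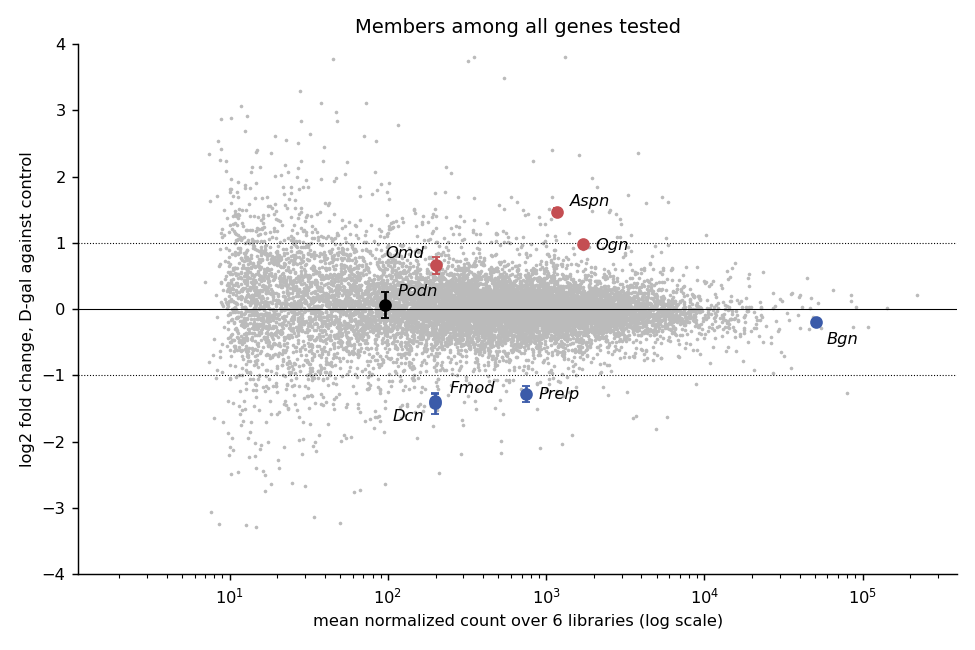
Log2 fold change of D-gal against control (vertical axis) by mean normalized count over the 6 libraries (horizontal log axis) for the genes tested (grey) and the 8 SLRP genes (coloured, red higher, blue lower, black not past the test, with SE), with dotted lines at 1 and -1 and 11 genes outside the axis. Aspn lies above 1, Dcn, Fmod and Prelp lie under -1, and Bgn stands at far higher counts than the others with a log2 fold change of -0.19.

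The calls did not rest on control replicate 1. Without it, the log2 fold changes were 1.48 for Aspn, 0.99 for Ogn, 0.56 for Omd, -1.51 for Dcn, -1.43 for Fmod, -1.28 for Prelp and -0.21 for Bgn. All 7 passed edgeR's test there, with 0.012 (Omd) as their highest adjusted p. Over all alternatives tried, the log2 fold change lay between 1.43 and 1.51 for Aspn, 0.92 and 1.02 for Ogn, and 0.56 and 0.78 for Omd. It lay between -1.56 and -1.16 for Dcn, -1.43 and -0.996 for Fmod, -1.41 and -1.13 for Prelp, and -0.21 and -0.16 for Bgn. For Dcn, Fmod, Prelp and Bgn the smallest fall came from limma on log2(FPKM + 1). On that scale changes of low genes shrink by construction.

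Levels of different SLRP genes were compared per length, as CPM per kilobase (kb) of merged exons. In control, Bgn stood first at 528 ± 11 CPM per kb (SD, n = 3), followed by Ogn at 26.8 ± 0.977, Prelp at 17.5 ± 1.12 and Aspn at 15.7 ± 0.549. Fmod at 5.16 ± 0.407, Omd at 4.15 ± 0.658, Dcn at 2.97 ± 0.332 and Podn at 1.30 ± 0.370 came after them. The control ranges overlapped for the neighbours Fmod and Omd and for no other neighbours in this order. The ratio of Bgn to Dcn per kb of merged exons was 179 on average in control and 430 in D-gal, and it is several times smaller with the lengths behind the deposited FPKM, as the FPKM values of both genes given further on show. In D-gal, Bgn still stood first at 462 ± 10.6 CPM per kb, followed by Ogn at 52.7 ± 3.46, Aspn at 43.6 ± 2.52, Prelp at 7.20 ± 1.22 and Omd at 6.55 ± 0.186. Fmod at 1.98 ± 0.0789, Podn at 1.36 ± 0.0746 and Dcn at 1.11 ± 0.235 closed the order. Here the ranges of Prelp and Omd overlapped, as did those of Podn and Dcn, while the other neighbours did not overlap. Dcn moved from place 7 to place 8, and Aspn passed Prelp. The ratio of Aspn to Dcn lay between 4.64 and 6.06 in control and between 31.6 and 54.6 in D-gal, and that of Ogn to Prelp between 1.39 and 1.68 in control and between 5.87 and 9.39 in D-gal. The order depends on the gene length used: with the deposited FPKM, 6 of the 8 genes kept their place in control and 3 of the 8 in D-gal. Dcn was the clearest case, with merged exons of 5838 bases against a length of 2084 bases behind its FPKM, and its FPKM was 8.21 ± 0.901 in control and 3.13 ± 0.657 in D-gal (SD, n = 3). The FPKM of Bgn was 329 ± 6.27 in control and 294 ± 5.84 in D-gal (SD, n = 3), from a length of 9670.0 bases against merged exons of 6099 bases. For Podn the length behind the FPKM was 9261 bases and the merged exons covered 4270.0 bases.

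**Figure D4:**
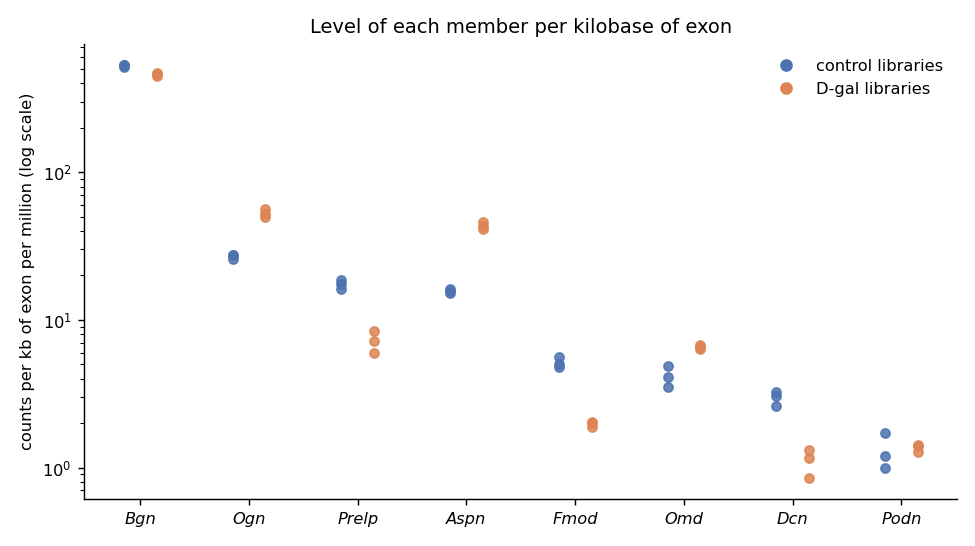
CPM per kb of merged exons (vertical log axis) of the 8 SLRP genes in order of their control level, with a point for each of the 3 control and 3 D-gal libraries. Bgn lies far above the others in both groups, Ogn and Aspn stand at 52.7 and 43.6 on average in D-gal against 26.8 and 15.7 in control, and Dcn and Podn lie lowest.

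Summed over the 10 genes, SLRP transcripts made up 3356, 3486 and 3468 CPM in control and 3160.3, 3051 and 3126 CPM in D-gal. The D-gal sums were all lower, with means of 3437 ± 70.4 CPM in control and 3113 ± 55.7 CPM in D-gal (SD, n = 3). This sum was mostly Bgn, which held 93.6% to 93.8% of the SLRP counts in control and 89.9% to 90.8% in D-gal. Without Bgn the direction turned: the other 9 genes summed to 218 ± 4.92 CPM in control and 297 ± 8.68 CPM in D-gal. The members on chromosome 13 (Aspn, Omd and Ogn) went from 113 to 117 CPM in control to between 239 and 268 CPM in D-gal, and those on chromosome 1 (Prelp and Fmod) from between 75.7 and 85.6 CPM to between 28.0 and 37.3 CPM. The sums are a description and were not tested.

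Of 8 further SLRP or SLRP-related genes, 5 were tested and 1 passed, where 34.8% of all genes tested did. Podnl1, the closest relative of Podn, had 173, 216 and 213 normalized counts in control and 275, 289 and 294 in D-gal. The groups did not overlap, and Podnl1 rose with a log2 fold change of 0.51 (SE 0.11, edgeR adjusted p = 0.0075). Besides Ecm2 and Optc, Chadl had 27, 17.1 and 43.4 normalized counts in control and 41.5, 47.0 and 43.4 in D-gal, a log2 fold change of 0.61 (SE 0.32, edgeR adjusted p = 0.18). Without control replicate 3, its highest control library, Chadl passed with a log2 fold change of 0.99 (edgeR adjusted p = 0.035). Tsku, which encodes the secreted signalling modulator tsukushi, had 486, 452 and 534 in control and 443, 551 and 455 in D-gal, with a log2 fold change of -0.02 (SE 0.10, edgeR adjusted p = 0.90). Epyc, Chad and Nyx had too few counts to be tested, at most 2, 0 and 11 per library.

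The glycosaminoglycan chains of SLRPs are built by a linker enzyme series and then by chondroitin, dermatan or keratan sulfate enzymes. Of 20 linker and chondroitin or dermatan sulfate enzymes tested, 4 rose, 2 fell and 14 did not pass, and their median log2 fold change was 0.00. The share called, 30.0%, was close to the 34.8% of all genes tested. Ust, which sulfates uronic acid residues of these chains, had the largest rise, from 123, 136 and 134 normalized counts in control to 319.8, 501 and 447 in D-gal. Its log2 fold change was 1.69 (SE 0.17, edgeR adjusted p = 0.00019). Chst11, a chondroitin 4-sulfotransferase, rose by 0.41 (SE 0.06, edgeR adjusted p = 0.0014) and Csgalnact2, which starts and extends chondroitin chains, by 0.24 (SE 0.04, edgeR adjusted p = 0.0029) on the log2 scale. The 2 that fell, named after their values were seen, were Csgalnact1, a paralog of Csgalnact2 with the same role, at a log2 fold change of -0.44 (SE 0.11, edgeR adjusted p = 0.015), and Xylt1, which starts the linker, at -0.83 (SE 0.21, edgeR adjusted p = 0.016). Of 9 keratan sulfate enzymes, 1 rose, 2 fell and 6 did not pass, with a median of -0.08, and the share called, 33.3%, was again close to the 34.8% of all genes tested. St3gal1, a sialyltransferase, rose by 0.55 (SE 0.05, edgeR adjusted p = 0.00014) and the galactosyltransferase gene B4galt1 had a log2 fold change of -0.37 (SE 0.05, edgeR adjusted p = 0.0010). The sialyltransferase gene St3gal3 had a log2 fold change of -0.42 (SE 0.13, edgeR adjusted p = 0.035), with overlapping groups. Its call was lost without control replicate 1 or 2 or without D-gal replicate 2 or 3, at adjusted p values between 0.099 and 0.11.

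Among 12 proteases that process or degrade SLRPs, with a helper of procollagen processing, 3 rose, 7 fell and 2 did not pass, where 16.9% of all genes tested rose and 17.8% fell. Their median log2 fold change was -0.49, against 0.0036 for all genes tested. Mmp2, a gelatinase that cleaves decorin, was at 6107, 6375 and 6317 normalized counts in control and at 4449.7, 4275 and 4443 in D-gal. It fell in every D-gal library, with a log2 fold change of -0.51 (SE 0.03, edgeR adjusted p = 2.7e-05), and Mmp14, which activates Mmp2 protein, fell by 0.47 on the same scale (SE 0.05, edgeR adjusted p = 0.00027). Tll1, related to the protease that removes the propeptide of biglycan, had a log2 fold change of -1.32 (SE 0.25, edgeR adjusted p = 0.0045) at 39.4 to 49.7 normalized counts in control and 13.3 to 22.4 in D-gal. Mmp9 had a log2 fold change of -1.03 (SE 0.28, edgeR adjusted p = 0.022), and its call was lost without control replicate 1 (adjusted p = 0.056) or 2 (adjusted p = 0.072). Adamts1, a proteoglycan-cleaving protease, rose by 0.53 on the log2 scale, from a mean of 2966 ± 34.6 to one of 4278 ± 66.1 normalized counts with SD and n = 3 (SE 0.03, edgeR adjusted p = 1.7e-05).

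Of 19 genes of matrix proteins that SLRPs bind, 2 rose, 11 fell and 6 did not pass, where 16.9% of all genes tested rose and 17.8% fell. Their median log2 fold change was -0.17. Fn1, the fibronectin gene, had a mean of 112079 ± 2407 normalized counts in control and 46568 ± 2564 in D-gal (SD, n = 3). The log2 fold change of Fn1 was -1.27 (SE 0.04, edgeR adjusted p = 1.8e-06). Some of its exon sequence overlaps Apol7d on the opposite strand. Col3a1, a collagen whose fibrils bind decorin and biglycan, had a log2 fold change of -1.18 (SE 0.05, edgeR adjusted p = 3.9e-06), and its exons overlap Gm47302 on the same strand. Col1a2, a chain of type I collagen, had a log2 fold change of -0.97 (SE 0.04, edgeR adjusted p = 4.8e-06). All 3 fell, as Dcn, Fmod and Prelp did, while the gene of another collagen binder, Aspn, rose.

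Of 21 growth factors and receptors that SLRPs bind, 6 rose, 11 fell and 4 did not pass, where 34.8% of all genes tested passed, 16.9% as higher and 17.8% as lower. Their median log2 fold change was -0.15. Tgfb2, a TGF-beta ligand, was at 922, 885 and 866 normalized counts in control and at 1313, 1366 and 1382 in D-gal. It rose by 0.60 on the log2 scale (SE 0.05, edgeR adjusted p = 6.3e-05), and part of its exons overlap Gm29491 on the opposite strand. The receptor gene Tgfbr1 had a log2 fold change of -0.54 (SE 0.04, edgeR adjusted p = 8.3e-05), and the decorin endocytosis receptor gene Lrp1 one of -0.29 (SE 0.02, edgeR adjusted p = 7.2e-05). P2rx7, an ATP-gated channel that biglycan engages, had 37, 25 and 33 counts in control and 3, 4 and 6 in D-gal, with a fitted log2 fold change of -2.50 (SE 0.39, edgeR adjusted p = 0.0019). It passed the filter on low counts through the control group alone, and it is not tested where at least 10 counts in every library are asked for.

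**Figure D5:**
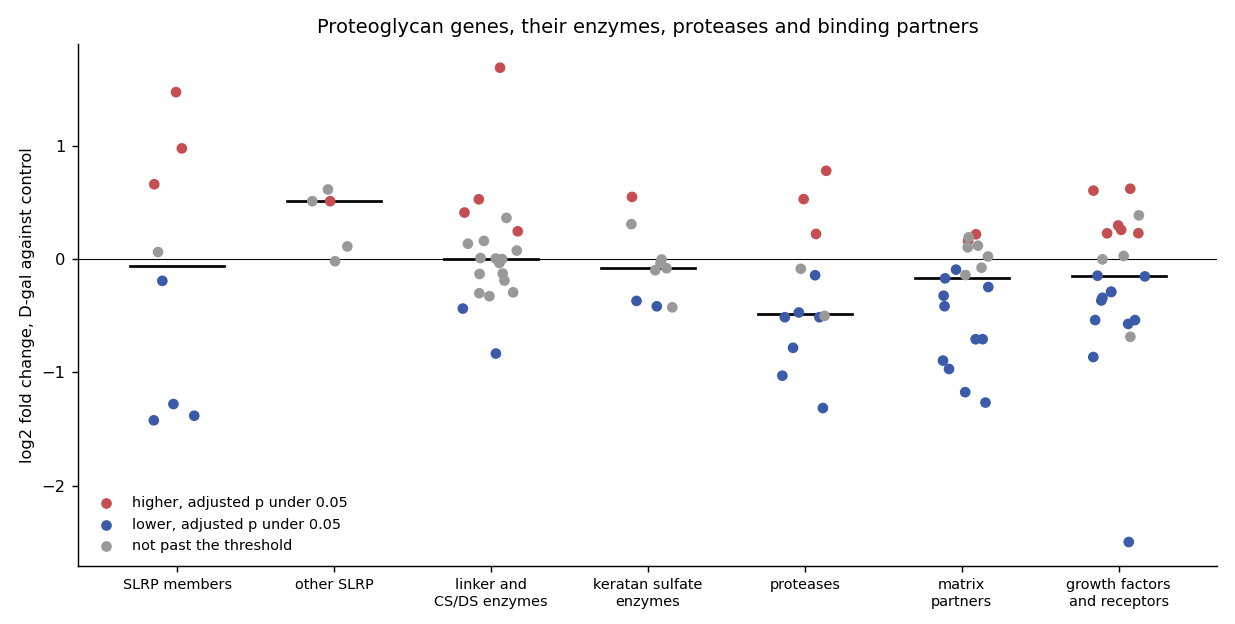
Log2 fold change of D-gal against control (vertical axis) of each tested gene of the SLRP members, the other SLRP genes and 5 lists of enzymes, proteases and binding partners, coloured by the edgeR call, with a bar at each median. The SLRP members spread from -1.42 to 1.47 around a median of -0.07, and the proteases have the lowest median, -0.49.

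Several marker lists moved with the groups beside these genes, and their part in the SLRP results was not tested. Among fibroblast markers, of which Dcn is one, 1 rose and 7 fell of 10 tested. The shares of all genes tested were 16.9% and 17.8%. Pdgfrb rose (log2 fold change 0.19, edgeR adjusted p = 0.0027). Pdgfra (-0.08, edgeR adjusted p = 0.068) and S100a4 (-0.04, edgeR adjusted p = 0.89) did not pass. The sum of the markers, mostly Col1a1, Col1a2 and Vim, was 8174 to 8389 CPM in control and 5395 to 5725 CPM in D-gal. The tendon cell list, which holds Fmod, summed to 382 to 394 CPM in control and 228 to 240.1 CPM in D-gal. Most of that sum was Egr1, a transcription factor gene used by many cell types, with 5832 to 7446 counts in control and 2879 to 3216 in D-gal (log2 fold change -0.77, edgeR adjusted p = 6.2e-06). Of its 3 genes tested, Egr1 and Fmod fell and Mkx did not pass (log2 fold change 0.36, edgeR adjusted p = 0.13). Its defining markers Scx and Tnmd had at most 11 and 6 counts in any library, and Thbs4 had 0. The cartilage or bone cell list summed to 254 to 259 CPM in control and 156 to 168 CPM in D-gal. Of its 4 genes tested, Sox9 (log2 fold change -1.26, edgeR adjusted p = 3.3e-06) and Col2a1 (log2 fold change -0.86, edgeR adjusted p = 0.00012) fell, while Runx2 (log2 fold change -0.03, edgeR adjusted p = 0.78) and Col10a1 (log2 fold change 0.17, edgeR adjusted p = 0.54) did not pass. Acan had at most 2 counts and Ibsp 0. The smooth muscle cell or pericyte list summed to 94.2 to 97.1 CPM in control and 126 to 140.3 CPM in D-gal. Of its 6 genes tested, 4 rose (Myh11, Cnn1, Notch3 and Mcam) and 2 fell (Rgs5 and Des). Over all genes tested, 16.9% rose and 17.8% fell. The endothelial list summed to 4.52 to 5.40 CPM in control and 3.09 to 3.38 CPM in D-gal. Of its 3 genes tested, Tek fell (log2 fold change -1.02, edgeR adjusted p = 0.034). Pecam1 (0.07, edgeR adjusted p = 0.91) and Kdr (-0.69, edgeR adjusted p = 0.052) did not pass. The myogenic list summed to 3.12 to 3.60 CPM in control and 1.94 to 2.15 CPM in D-gal. Most of that sum was Des, the only gene of the list tested, which is also in the smooth muscle cell or pericyte list. Des had a log2 fold change of -0.78 (edgeR adjusted p = 0.0090). The adipocyte list summed to 16.9 to 17.9 CPM in control and 14.2 to 19.7 CPM in D-gal. The endothelial gene Cldn5, the myogenic genes Pax7, Myf5 and Myod1 and the adipocyte genes Adipoq, Lep and Cidec had 0 counts in all libraries. The leukocyte marker Ptprc had 13 counts in control replicate 1 and at most 3 elsewhere, and none of the 3 leukocyte markers tested passed.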

How the data were processed

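RNA-seq libraries of NOR-10 cells were analysed, 3 control and 3 D-gal, grouped by their labels. The deposited table holds whole-number counts per gene, which the authors gave without normalization, and FPKM values, which the authors computed from those counts, gene length and library total. According to the methods, reads were checked with FastQC and trimmed with Trimmomatic, and the submitters' processing notes name HISAT2 (version 2.0.4). The counting tool, its use of strand and the genome build are not given in the sources used here. All 10 SLRP genes are in GENCODE release 21 for mouse (GRCm38), 4 with the same start and end, and gene positions are those of the deposited table. All 12 per-sample columns were matched by name, and 14371 of the 34745 genes had 0 counts in every library.

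Genes were tested with edgeR (version 4.0.16) in R (version 4.3.3), using TMM (factors 0.986 to 1.01), filterByExpr and the quasi-likelihood test on all 6 libraries without covariates, with Benjamini-Hochberg adjustment over the 13407 genes kept. Thresholds were those of the methods, an adjusted p under 0.05 and, for size, 1 on the log2 scale in either direction. Each standard error is the fold change on that scale over the square root of F. To obtain normalized counts, each count was scaled from its TMM-scaled library size to the mean of these sizes. Levels per kb divide CPM by the merged exons of GENCODE release 21. Single genes were also compared by a two-sided exact permutation test. Replicates of a group differed by more than sampling noise (chi-square over its degrees of freedom between 6.00 and 9.42), so none was counted as a duplicate. The functions were tested on simulated data.

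The SLRP genes and all lists were chosen from general knowledge with earlier results of these data known, and the promoter motifs and the 250 kb flanks after the values were seen. Genes named were all SLRP genes and, from each further list, the 3 with the smallest p among those with 100 counts or more in each library of the group with the higher level, with every gene past both thresholds. Ccn2 and Ccn4 were matched to their older symbols. Promoter sequences are from RefSeq (GRCm38.p6), in which 8 of the 10 SLRP genes were matched, all but Dcn and Lum. Alternatives were DESeq2 (version 1.42.0), RLE size factors, other filters on low counts, the replicate number as a block, each library left out, limma (version 3.58.1) on log2(FPKM + 1), counts thinned to the smallest total and an adjusted p under 0.01.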

Additional observations from a re-analysis of the deposited data

How the results depend on the processing

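Of 104 alternative values of the 8 tested SLRP genes, 102 kept their direction and side of the threshold, and 7 SLRP genes passed under each alternative, leaving out each library included (7 to 7). The number also past the size threshold was 4, except 3 with limma on log2(FPKM + 1) (Fmod, log2 fold change -0.996) and 5 without D-gal replicate 1 (Ogn, 1.02), a range of 4 to 5 over the libraries left out. Podn turned sign with thinned counts (-0.028) and without control replicate 3 (-0.098), and lay between -0.098 and 0.31 over the libraries left out. Ecm2 turned with thinned counts (-0.054) and without control replicate 2 (-0.067) or D-gal replicate 3 (-0.086, range to 0.27), and Tsku with limma (0.0076) and without control replicate 3 (0.043, range from -0.13), D-gal replicate 1 (0.039) or D-gal replicate 3 (0.020). None of these was called. The number of other SLRP genes called was 1, and 2 without control replicate 3, where Chadl passed. At an adjusted p under 0.01, 3 linker and chondroitin or dermatan sulfate enzymes and 6 proteases passed. With each library left out, the numbers called lay between 1 and 2 for other SLRP genes, 4 and 6 for linker and chondroitin or dermatan sulfate enzymes, 2 and 4 for keratan sulfate enzymes, 7 and 9 for proteases, 12 and 13 for matrix partners and 13 and 17 for growth factors and receptors. The share of 34.8% of all genes tested holds for an adjusted p under 0.05 on all 6 libraries. Shares of all genes under these alternatives are not given here, so these numbers were not compared with them. The St3gal3 call was also lost with limma (-0.33, adjusted p = 0.059). On the log2(FPKM + 1) scale, changes of low genes shrink by construction, to -0.17 for P2rx7, -0.33 for Tll1 and -0.32 for Mmp9. The summed SLRP level differed by -324 CPM, by -246 CPM without TMM scaling and by 79.1 CPM without Bgn. With the deposited FPKM, 3 of 8 genes kept their place in the D-gal order. Same-numbered replicates did not deviate together (r from -0.039 to 0.0063 over 3 pairs, and from -0.036 to 0.042 for other pairs). The numbers were used as names of samples only, though such r values cannot show whether same-numbered libraries were handled together. With the replicate block, 7 SLRP genes passed and 4 also passed the size threshold, and Mmp9 lost its call (-1.05, adjusted p = 0.052). Lum and Kera lie under the limit that depth sets. Podn, at 70 to 150 counts in control, varied by 28.5% (coefficient of variation) among control libraries, against 7.90% for Fmod at 278 to 381 counts, and the cause of its wide interval was not tested. No value bears on protein or on the sulfate chains.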

Other observations

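Among the chain-building enzymes, Chpf2, a chondroitin polymerizing factor, had counts of 1716, 1857 and 1573 in control and of 1553, 1455 and 339 in D-gal. Dsel, a dermatan sulfate epimerase, had 555, 611 and 611 in control and 450, 487 and 192 in D-gal. Both were low in D-gal replicate 3 alone and neither passed edgeR's test, with adjusted p values of 0.63 and 0.39. These genes were chosen after their values were seen.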
